A study of Mus musculus with 3 samples.

Results

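Mural cells form the contractile and supporting layer of blood vessels: pericytes lie along capillaries and smooth muscle cells wrap arterioles and larger vessels. They are attached to the endothelial tube through a shared basement membrane, they receive platelet-derived growth factor from the endothelium, and in the brain they take part in setting local blood flow and in keeping the blood-brain barrier. Smooth muscle cells carry a dense actin and myosin apparatus, whereas pericytes are recognised by potassium channel, transporter and surface genes.

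The mural cells described here are 318 of 10291 cells of the mouse nucleus accumbens, a ventral striatal region. All 3 samples belong to 1 group: mice of the Thy1::ChR2 strain, in which the Thy1 promoter, known for its activity in neurons, drives the light-gated channel channelrhodopsin-2, treated with FLiCRE labelling while ChR2 was stimulated with light in the nucleus accumbens. Tissue came from a coronal dissection 400 um thick, and single-cell libraries were made with the 10x Genomics 3′ v2 kit, which counts RNA molecules by their tags (UMIs). No unstimulated group and no age, sex or number of animals was used here, so cell types are compared with each other within each library. The 3 libraries are told apart by the barcode suffix; nothing ties a suffix to a numbered sample, the number is only a name, and it is not stated whether the libraries came from separate animals. P-values therefore measure only the spread between these libraries.

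Members were chosen by measured values. Among cells that passed the quality limits (300 or more genes, mitochondrial UMIs no more than 20%), a member held 3 or more UMIs over Rgs5, Vtn, Pdgfrb, Kcnj8, Acta2 and Tagln, with at least 2 of these 6 genes detected, and at most 1 UMI over each of 3 pairs of genes for endothelial cells (Cldn5 and Flt1), fibroblasts (Dcn and Col1a1) and neurons (Snap25 and Syt1). The first condition was met by 404 cells, of which 86 were removed by the pairs: 16 failed on the endothelial pair, 30 on the fibroblast pair and 48 on the neuronal pair. Members held a median of 14 UMIs of the 6 genes. At the threshold, 11 members held exactly 3 such UMIs, and just outside it were 12 cells with 2 UMIs on 2 genes and 13 cells with 3 or more UMIs on 1 gene only. The comparison class of endothelial cells, the inner lining of the vessel, was 529 cells with 3 or more UMIs of Cldn5, Flt1 and Ly6c1. No member met the endothelial rule, while 57 endothelial cells held at least 1 UMI and 19 held 3 or more of the 6 mural genes.

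Libraries 1, 2 and 3 held 56, 190 and 72 mural cells. These were 2.38% (95% Clopper-Pearson interval 1.80 to 3.08), 3.13% (2.70 to 3.59) and 3.87% (3.04 to 4.85) of the kept cells, with a mean of 3.13% ± 0.742 (SD, n = 3 libraries). Median depth per mural cell was 710.5, 1066.5 and 1751 UMIs in the 3 libraries, and that of endothelial cells was 924, 1545 and 2497 UMIs. Intervals cover counting error only. The share was highest in the deepest library, and when only cells with at least 1000 UMIs were counted the mean share was 2.33%. Smooth muscle cells, defined as members with 3 or more UMIs of Acta2 and Tagln, numbered 10, 66 and 20. They made up 17.9% (8.91 to 30.4), 34.7% (28.0 to 42.0) and 27.8% (17.9 to 39.6) of the mural cells, a mean of 26.8% ± 8.48 (SD, n = 3 libraries). The remaining 222 cells are called other mural cells. The class boundary is a cut through a range of counts: 195 members held no Acta2 or Tagln UMI, 27 held 1 or 2, 21 held 3 to 5 and 54 held 12 or more. Smooth muscle cells of library 1 summed to only 8532 UMIs, against 115615 and 58981 in libraries 2 and 3, so values of smooth muscle in library 1 rest on few molecules.

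The genes of the rule are given as a description, because they chose the cells. Levels throughout are CPM, that is, a gene's UMIs summed over the cells of a class in 1 library and scaled to a common total, for libraries 1, 2 and 3 in that order. Rgs5, a regulator of G-protein signalling, had a UMI in 88.7% of members; it stood at 5978, 3071 and 6901 CPM in smooth muscle and 3505, 4255 and 4557 CPM in other mural cells. Its levels in the mural classes overlapped, and both lay above the 46.3, 126 and 502 CPM of endothelial cells. Vtn, which encodes the secreted adhesion protein vitronectin, was at 1289, 744 and 1051 CPM in smooth muscle and 4541, 3840.3 and 5345 CPM in other mural cells, so every library had more in the other mural cells. Pdgfrb, the receptor for platelet-derived growth factor B, was at 703, 355 and 373 CPM in smooth muscle and 1213, 1069 and 1127 CPM in other mural cells. Kcnj8, the pore subunit of an ATP-sensitive potassium channel, was detected in 5.21% of smooth muscle cells and 46.4% of other mural cells. Acta2, smooth muscle actin, reached 3985, 10172 and 11071 CPM in smooth muscle, where its highest count in 1 cell was 131 UMIs, and 132, 91.4 and 58 CPM in other mural cells. Tagln, an actin-binding protein of smooth muscle, was at 3047, 4394 and 4476 CPM in smooth muscle and 154, 21.1 and 8.29 CPM in other mural cells.

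**Figure D1:**
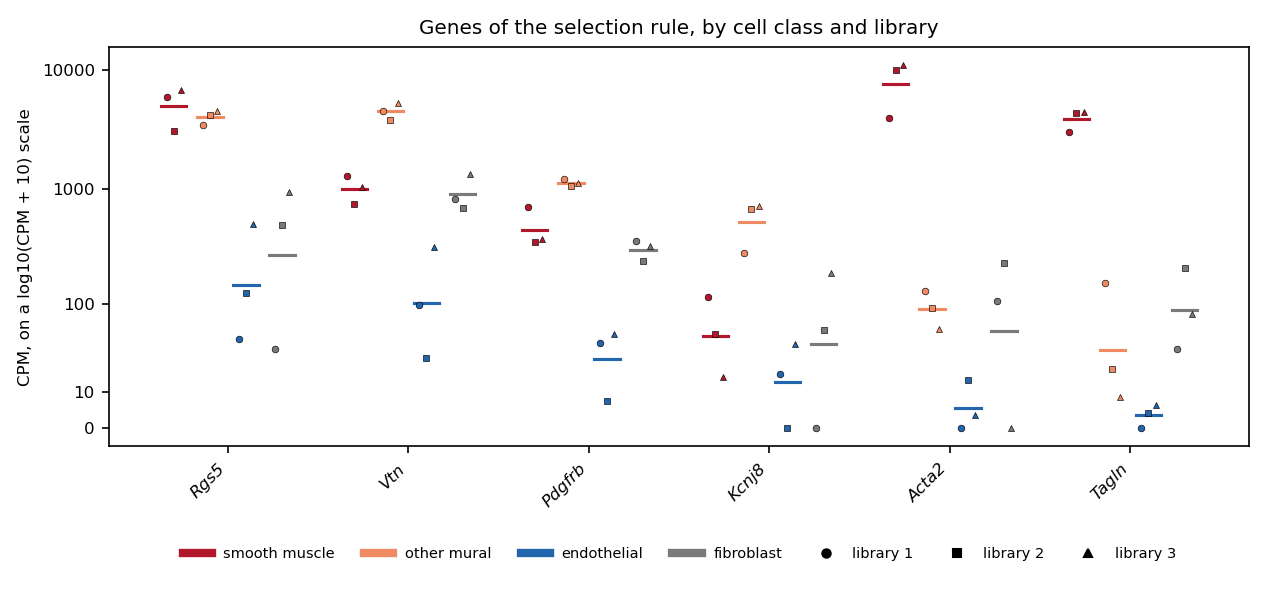
CPM of the 6 genes that chose the mural cells, on a log10(CPM + 10) scale, in smooth muscle, other mural, endothelial and fibroblast cells; each symbol is 1 library and each bar the mean of the log values of 3 libraries. Acta2 and Tagln separate smooth muscle from the other mural cells by construction, Vtn and Kcnj8 lie higher in the other mural cells, and Rgs5 overlaps between them.

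Markers of other brain cell types were present in the mural cells, and their sums were unequal between the classes compared. Oligodendrocyte markers (7 genes) summed to 10502, 4193 and 9946 CPM in mural and 3013, 2873 and 5669 CPM in endothelial cells. Microglia and macrophage markers (7 genes) summed to 3062, 3677 and 1052 CPM in mural and 1231, 686 and 119 CPM in endothelial cells. Astrocyte markers (7 genes) summed to 4379, 1094 and 1369 CPM in mural and 278, 1049 and 557 CPM in endothelial cells. Within the mural cells the astrocyte sum was 1055, 605 and 390.0 CPM in smooth muscle and 5004, 1491 and 1848 CPM in the others, and the microglia sum was 117, 2586 and 67.8 CPM in smooth muscle and 3616, 4565 and 1533 CPM in the others. The oligodendrocyte sum was 8673, 2154 and 6528 CPM in smooth muscle and 10847, 5852 and 11617 CPM in the others. All 3 sums were higher in other mural cells than in smooth muscle in each library. None of the 7 oligodendrocyte or 7 microglia markers was at 0 in either mural class, and of the astrocyte markers Agt was at 0 in smooth muscle. Endothelial markers (22 genes) summed to 1039, 1078 and 935 CPM in mural cells against 31241, 26877 and 34134 CPM in endothelial cells. Of 5 T cell markers, Cd3e, Cd3g, Cd8a and Nkg7 had no UMI in any member, and Cd3d was at 0, 7.76 and 0 CPM. Of the members, 127 held 5 or more UMIs of the astrocyte, oligodendrocyte, microglia and neuron markers, and 19 were among the 368 highest doublet scores. No member's barcode sequence was shared with a kept cell of another library, although the libraries share 13, 7 and 22 barcode sequences in pairs. The part of such RNA in the gene differences was not tested as a cause, but counts are given below for cells with at most 4 such UMIs.

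**Figure D2:**
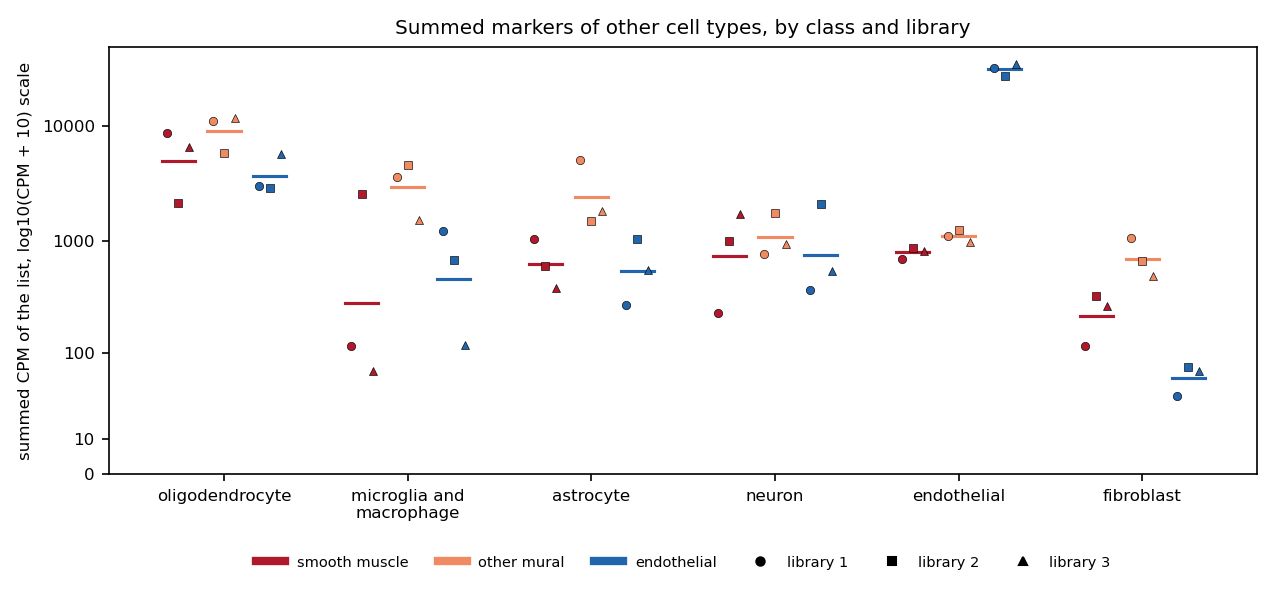
Summed CPM of marker lists of other cell types, on a log10(CPM + 10) scale, in smooth muscle, other mural and endothelial cells; each symbol is 1 library and each bar the mean of the log values. Oligodendrocyte, microglia and astrocyte sums lie above those of smooth muscle in the other mural cells of every library, while endothelial markers stay near or under 1245 CPM in both mural classes. The fibroblast list includes Dcn and Col1a1, which the rule limits.

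Mural and endothelial cells were compared over 4962 genes on counts summed per library, with the library as a block. At an adjusted p under 0.05, 553 genes were higher in mural cells (11.1% of those tested) and 633 were lower (12.8%), and the median log2 fold change of all genes tested was -0.09. Genes that go together with the rule's genes in a cell can differ through the choice of cells, and a gene could pass the filter on low counts through 1 class alone. Markers that the rule did not use describe the label but are no independent check of it. Both classes were chosen by genes of the same cell types, and the lists with earlier results of these data known. Of 16 tested pericyte markers all 16 were higher in mural cells, with a median log2 fold change of 4.48 (the other listed marker, Anpep, was too low to test). Of 22 endothelial markers all 22 were lower, with a median of -6.60, or -6.24 with the 2 genes that had no mural UMI set at their bound. For these 2, Tek and Mfsd2a, the level in endothelial cells was at least 39-fold and 17-fold that of mural cells. Of 23 tested contractile genes (26 listed), 18 were higher in mural cells, with a median of 3.12. The count of 1186 genes was 357 without library 3 and 686 without library 2, and all 1034 and 972 called genes still tested there kept their direction. In cells with at most 4 UMIs of other cell types' markers, 1042 of 3111 genes tested were called, and 859 of these were among the 1186. Of the 922 called genes still tested there, 914 kept their direction.

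Several pericyte markers had few UMIs in endothelial cells. Cspg4, the surface proteoglycan NG2, was at 204, 147 and 139 CPM in mural and 4.63, 0 and 2.9 CPM in endothelial cells, or 74 against 2 UMIs, a ratio of 86.4-fold (95% counting interval 23.1 to 727). The receptor Notch3, by which mural cells read Notch ligands, was at 482, 306 and 557 CPM in mural and 0, 5.12 and 26.1 CPM in endothelial cells (log2 fold change 5.29 ± 0.43 SE, adjusted p = 7.08e-06, edgeR). Abcc9, the regulatory partner of Kcnj8 in the ATP-sensitive potassium channel, was at 334, 454 and 406 CPM in mural cells and 9.26, 6.82 and 40.6 CPM in endothelial cells (log2 fold change 4.50 ± 0.44 SE, adjusted p = 2.58e-05, edgeR). The mural values of each of these 3 genes lay above all endothelial values. Higd1b, a gene of the hypoxia-induced domain family, stood at 2041, 1905 and 1826 CPM in mural cells and varied more in endothelial cells, at 4.63, 18.8 and 119 CPM (log2 fold change 5.53 ± 0.73 SE, adjusted p = 0.00434, edgeR).

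The list of vasoactive receptors and cyclic nucleotide genes, which holds the means by which vessel wall cells receive dilating and constricting signals, had 16 of 37 members abundant enough to test. Of these, 12 were higher and 1 was lower in mural cells, against 11.1% higher and 12.8% lower over all genes tested. Their median log2 fold change was 3.53. Among the receptors, Ednra, the endothelin A receptor, was at 204, 182 and 167 CPM in mural and 0, 5.12 and 14.5 CPM in endothelial cells (log2 fold change 4.58 ± 0.50 SE, adjusted p = 4.98e-05, edgeR). P2ry14, the receptor for UDP-glucose, was at 389.7, 434 and 356 CPM in mural cells and 0, 3.41 and 34.8 CPM in endothelial cells, and the neuropeptide Y receptor gene Npy1r at 37.1, 73.7 and 44.5 CPM in mural cells and 4.63, 3.41 and 0 CPM in endothelial cells. For both genes, every mural library stood above every endothelial one. Receptors for thromboxane (Tbxa2r, log2 fold change 4.02), sphingosine 1-phosphate (S1pr3, 4.01) and adenosine (Adora2a, 1.95) also passed the test. Adora2a is abundant in striatal neurons as well, and it had 49 UMIs in mural cells. The 2 subunits of the nitric oxide receptor, soluble guanylate cyclase, were both higher: Gucy1a3 at 204, 287 and 267 CPM in mural cells and 4.63, 47.8 and 11.6 CPM in endothelial cells, and Gucy1b3 at 167, 353 and 239 CPM in mural cells and 4.63, 61.4 and 31.9 CPM in endothelial cells. Their downstream phosphodiesterases moved the same way. Pde5a, which degrades cyclic GMP, had a log2 fold change of 3.64, and Pde3a, which cyclic GMP inhibits, had 85 mural and 3 endothelial UMIs, a ratio of 66.1-fold (95% counting interval 21.9 to 327). The 1 member that was lower was Gnai2, an inhibitory G-protein subunit, at 464, 396 and 518 CPM in mural and 1102, 735 and 1172 CPM in endothelial cells (log2 fold change -1.13 ± 0.20 SE, adjusted p = 0.00153, edgeR). Ramp1 and Rgs2 did not pass, with adjusted p of 0.102 and 0.444 (edgeR). The angiotensin and adrenergic receptor genes Agtr1a and Adra1a were too low to test, with 2 and 0 mural UMIs.

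**Figure D3:**
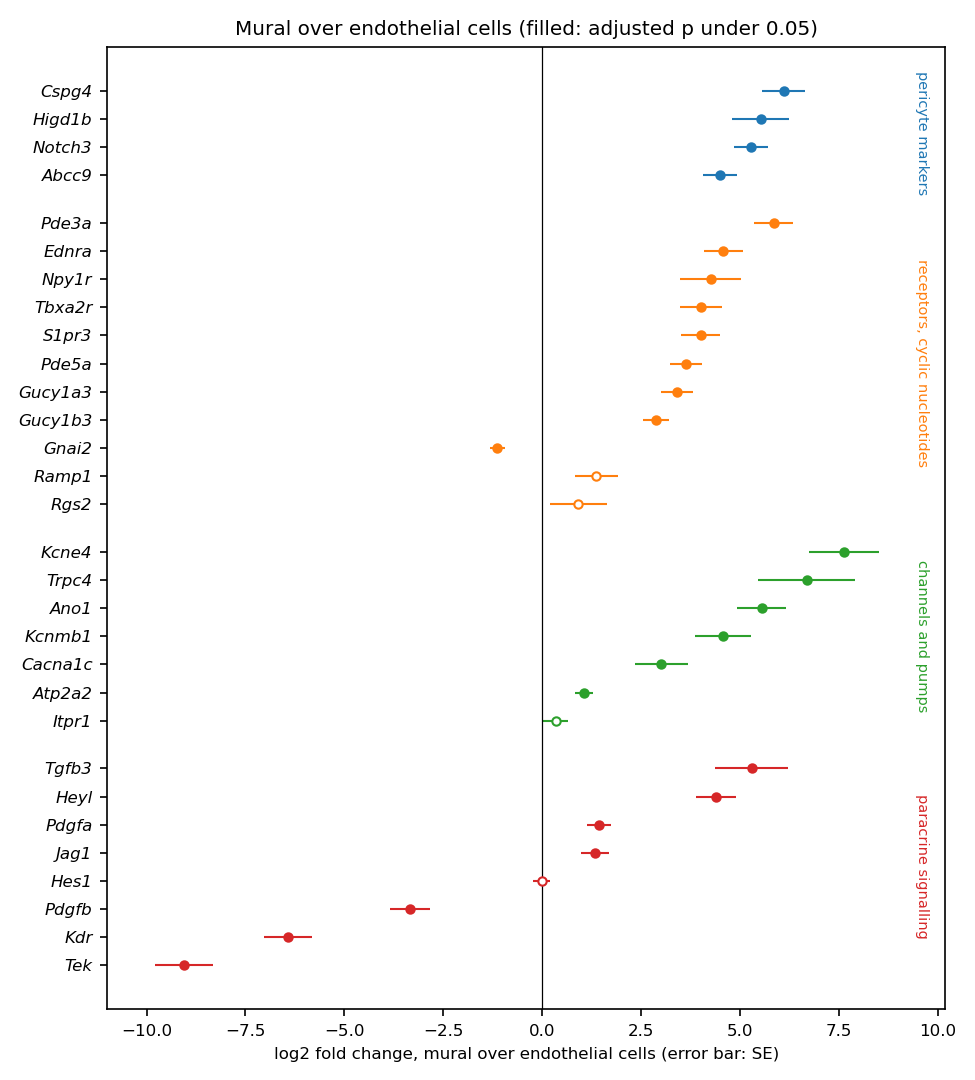
Fitted log2 fold change of mural over endothelial cells with its SE, from 3 libraries, for named genes of 4 lists; filled symbols have an adjusted p under 0.05 (edgeR). Kcne4 and Trpc4 had no endothelial UMI and Tek no mural UMI, so their fitted values depend on the prior count; Gnai2, Pdgfb, Kdr and Tek lie to the left of 0.

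Of 16 tested genes that handle calcium, potassium and chloride (28 listed), 12 were higher in mural cells and the other 4 did not pass. The list median log2 fold change was 3.29, and 11.1% of all genes tested were higher. Kcne4, an accessory subunit of potassium channels, was at 74.2, 89.2 and 106 CPM in mural cells and had no UMI in endothelial cells, so it was at least 35.8-fold higher. Trpc4, a cation channel, also had no endothelial UMI and was at least 17.9-fold higher. Ano1, the calcium-activated chloride channel, had 72 mural and 3 endothelial UMIs, a ratio of 56-fold (95% counting interval 18.4 to 278). Kcnmb1, the beta subunit of the large calcium-activated potassium channel, had 36 mural and 3 endothelial UMIs, a ratio of 28-fold (95% counting interval 8.85 to 142). Cacna1c, the pore of the L-type calcium channel, and Atp2a2, the calcium pump of the sarcoplasmic reticulum, had log2 fold changes of 3.02 and 1.05. Itpr1 and Cacna2d1 did not pass (adjusted p of 0.499 and 0.179, edgeR).

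Paracrine signalling genes went in both directions. Of 28 tested genes (40 listed) of the PDGF, TGF-beta, Notch, angiopoietin and VEGF pathways, 8 were higher and 12 lower in mural cells. Their median log2 fold change was -0.44, and the shares over all genes tested were 11.1% higher and 12.8% lower. The ligand Pdgfb was at 0, 7.76 and 22.3 CPM in mural and 194, 107 and 125 CPM in endothelial cells (log2 fold change -3.34 ± 0.51 SE, adjusted p = 4.2e-04, edgeR). Pdgfa, the related ligand, was higher in mural cells at 129.9, 178 and 295 CPM in mural cells and 37, 98.9 and 72.5 CPM in endothelial cells (log2 fold change 1.44 ± 0.30 SE, adjusted p = 0.00484, edgeR). The Notch target Heyl was higher (log2 fold change 4.39), as was Hey2, with 51 against 3 UMIs, a ratio of 39.7-fold (95% counting interval 12.8 to 199). The ligand Jag1 was higher (1.34), and the target Hes1 was at 408, 407 and 339.5 CPM in mural and 495, 329 and 354 CPM in endothelial cells, with no difference detected (adjusted p = 0.98, edgeR). Tgfb3 had 26 UMIs in mural and 1 in endothelial cells. Kdr, a receptor for vascular endothelial growth factor, had 1 mural and 237 endothelial UMIs. Angpt1, Angpt2 and Vegfa were too low to test in these cells.

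Basement membrane and matrix genes were more often higher than lower in mural cells, with 16 of 27 tested (42 listed) higher and 1 lower. Their median log2 fold change was 1.07, and the shares over all genes tested were 11.1% higher and 12.8% lower. Lama2, a laminin chain, was at 167, 77.6 and 66.8 CPM in mural and 0, 1.71 and 5.8 CPM in endothelial cells, and Itga7, a laminin receptor subunit, at 37.1, 46.5 and 156 CPM in mural cells and 0, 5.12 and 2.9 CPM in endothelial cells. Bgn, the proteoglycan biglycan, was at 445, 310.3 and 685 CPM in mural, 41.7, 15.4 and 43.5 CPM in endothelial and 2012, 969 and 378 CPM in the 63 fibroblasts of the series (cells with 3 or more UMIs of Dcn and Col1a1). The fibrillar collagen genes Col1a2 and Col3a1, which are also fibroblast markers, were higher in mural than endothelial cells (log2 fold changes 3.82 and 3.38); Col1a2 was at 148, 109 and 145 CPM in mural cells and 3125, 1995 and 783 CPM in fibroblasts. All 3 fibroblast markers tested were higher in mural cells, the remaining one being Igf2 (log2 fold change 3.93). The 9 markers, 2 of which the rule limits, summed to 909, 516 and 423 CPM in mural, 37, 73.4 and 66.7 CPM in endothelial and 19074, 11251 and 7078 CPM in fibroblast cells, and Dpt was at 0 in mural cells; their part in the matrix differences was not tested. The matrix gene that was lower was Fn1, fibronectin, at 223, 109 and 44.5 CPM in mural cells and 1588, 824 and 1212 CPM in endothelial cells (log2 fold change -3.45 ± 0.33 SE, adjusted p = 2.31e-05, edgeR). The collagen IV genes Col4a1 and Col4a2, core chains of the vascular basement membrane, did not pass (adjusted p of 0.521 and 0.917, edgeR), and Sparc missed the threshold at 0.0749.

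In a list of solute carriers picked for mural and barrier cells, 6 of 11 tested (17 listed) were higher and 3 lower in mural cells. Over all genes tested, 11.1% were higher and 12.8% lower. Slc38a11 was at 278, 376 and 439.7 CPM in mural and 4.63, 3.41 and 23.2 CPM in endothelial cells, and the folate carrier Slc19a1 at 297, 314 and 312 CPM in mural cells and 4.63, 3.41 and 29 CPM in endothelial cells. Slc16a12, of the monocarboxylate transporter family, had 49 mural and 2 endothelial UMIs. In the opposite direction, the cationic amino acid transporter Slc7a1 was at 18.6, 7.76 and 0 CPM in mural and 444, 148 and 377 CPM in endothelial cells. Slc22a8 and Slc1a3 did not pass (adjusted p of 0.0822 and 0.296, edgeR).

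Of 22 tested genes (26 listed) of a list of mural transcription factors, which also holds endothelial ones, 12 were higher and 7 lower in mural cells. Over all genes tested, 11.1% were higher and 12.8% lower. The list was picked for these cell types and gives no rate for transcription factors at large. The T-box factor Tbx2 was at 167, 116 and 156 CPM in mural cells with no endothelial UMI, which makes it at least 52.1-fold higher, and the forkhead factor Foxd1 was at 55.7, 116 and 111 CPM, at least 41.2-fold higher. Tbx18, a known mural T-box factor, and the forkhead gene Foxs1 had 67 and 53 mural UMIs, and each had 1 endothelial UMI. Zic1 was at 334, 326 and 351 CPM in mural, 13.9, 6.82 and 20.3 CPM in endothelial and 323, 307 and 243 CPM in fibroblast sums. The endothelial factors Sox17 and Sox18 had no mural UMI; they were at least 52.7-fold and 22.4-fold higher in endothelial cells. Epas1 and Foxc1 did not pass (adjusted p of 0.0514 and 0.213, edgeR).

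Ndufa4l2 and Ndufa4, paralogues that encode mitochondrial respiratory chain proteins, went in opposite directions. Ndufa4l2, a paralogue of the complex IV subunit gene Ndufa4, was at 1225, 1354 and 1247 CPM in mural and 13.9, 37.5 and 87 CPM in endothelial cells (log2 fold change 4.79 ± 0.35 SE, adjusted p = 3.77e-06, edgeR). Ndufa4 itself was at 259.8, 613 and 273 CPM in mural cells and 648, 1175 and 876 CPM in endothelial cells (log2 fold change -1.32 ± 0.22 SE, adjusted p = 0.0012, edgeR), below the endothelial value in each library. The Ndufa4 call was lost without library 3 and with no replicate block (adjusted p of 0.132 and 0.0621, edgeR). Cox4i2, the alternative isoform of complex IV subunit 4, was at 389.7, 353 and 384 CPM in mural and 9.26, 8.53 and 31.9 CPM in endothelial cells (log2 fold change 4.49 ± 0.37 SE, adjusted p = 7.94e-06, edgeR), and the common isoform Cox4i1 at 1429, 1164 and 802 CPM in mural cells and 764, 1097 and 771 CPM in endothelial cells (adjusted p = 0.378, edgeR). Higd1a, the paralogue of Higd1b, did not pass (adjusted p = 0.772, edgeR). Neither Cox7a2 (adjusted p = 0.419, edgeR) nor Cox7a1, which was too low to test, was called.

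Inflammatory mediators were mixed, with 4 of 20 tested (32 listed) higher and 6 lower, against 11.1% higher and 12.8% lower over all genes. Il34, a ligand of the microglial receptor gene Csf1r, was at 315, 221 and 378 CPM in mural and 9.26, 11.9 and 14.5 CPM in endothelial cells (log2 fold change 4.49 ± 0.32 SE, adjusted p = 3.26e-06, edgeR). The chemokine genes Ccl11 and Ccl2 were at 186, 423 and 39 CPM (Ccl11) and 111, 272 and 33.4 CPM (Ccl2) in mural cells, in both cases most in library 2. In endothelial cells they were at 4.63, 6.82 and 8.7 CPM and 0, 22.2 and 0 CPM. The fibroblast sums were above the mural ones in every library, at 539, 1341 and 108 CPM and 718, 808 and 1621 CPM. Lgals3, a galectin that macrophages also make, had a log2 fold change of 2.65, beside the higher microglia and macrophage markers given above, of which 5 of 6 tested were higher in mural cells. The calls of C1qa, C1qc and Tyrobp were lost without library 2 and without library 3, among other settings. The lower genes included Vcam1 (-2.75), Cxcl12 (-2.83), Lcn2, with 3 mural and 103 endothelial UMIs, and Ptgs2, which had no mural UMI. Of 37 tested (40 listed) interferon-response and antigen presentation genes, 1 was higher and 16 lower, with a median log2 fold change of -0.85. The class I genes H2-K1 and H2-D1 were at 408, 310.3 and 228 CPM (H2-K1) and 389.7, 516 and 557 CPM (H2-D1) in mural cells. In endothelial cells they were at 1166, 966 and 1296 CPM and 1291, 1426 and 1934 CPM. They belong to a family of near-identical copies, so their split is uncertain. Ifitm1 was the gene that was higher, at 872, 679 and 1514 CPM in mural cells and 305, 126 and 174 CPM in endothelial cells (log2 fold change 2.35 ± 0.30 SE, adjusted p = 1.56e-04, edgeR). Its call was lost without library 3 (adjusted p = 0.0522, edgeR). It was also lost in cells of at least 1000 UMIs and with 0 UMIs of the excluded genes (adjusted p of 0.0557 and 0.0848, edgeR). In the list of immediate early and dissociation stress genes, 1 of 23 tested (27 measured) was higher and 4 were lower. Over all genes, 11.1% were higher and 12.8% lower. Cebpb was at 129.9, 1311 and 267 CPM in mural and 55.5, 113 and 43.5 CPM in endothelial cells, and Klf2, a flow-responsive factor of endothelium, at 18.6, 128 and 55.7 CPM in mural cells and 787, 1665 and 2302 CPM in endothelial cells (log2 fold change -4.46 ± 0.34 SE, adjusted p = 4.18e-06, edgeR).

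The largest changes over all genes are named by their size. Beside genes already described, Myh11, Pln, Lmod1, Crispld2, Dhx58os and Tbx3os1 were among the 10 largest rises in mural cells. Crispld2 and Dhx58os had no endothelial UMI and were at least 23.3-fold and 19.5-fold higher, and Tbx3os1 had 72 UMIs against 1. The call of Crispld2 was lost without library 3 (adjusted p = 0.0564, edgeR). Dhx58os and Tbx3os1 carry the names of opposite-strand transcripts, and whether strand was used in counting is not given in the sources used here. The largest falls were Scgb3a1, a secreted protein gene, at 0 in mural cells and 421, 525 and 998 CPM in endothelial cells, then Adgrl4, Gm694, Sox17, Lrg1 and Tek, all without a mural UMI. Scgb3a1 was at least 106-fold and the adhesion receptor gene Adgrl4 at least 95-fold higher in endothelial cells.

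Inside the mural cells, smooth muscle was compared with the other members over 1973 genes. At an adjusted p under 0.05, 65 genes were higher in smooth muscle (3.29% of those tested) and 44 were lower (2.23%), and the median log2 fold change of all genes was -0.08. The genes of the contractile apparatus were among them: 17 of 22 tested were higher and the other 5 did not pass, with a median of 2.90. Acta2 and Tagln, which made the split, were not tested. Genes that go together with them in a cell can differ through the split itself. The contractile counts therefore describe the label and are no independent check of it. This comparison leans on libraries 2 and 3. Without library 1 it gave 117 genes, whereas without library 2 it gave 2 and without library 3 it gave 0, with 166 and 108 genes at an unadjusted p under 0.05 (edgeR). Of the called genes still tested, 66 of 66 kept their direction without library 2 and 81 of 81 without library 3. In cells with at most 10% mitochondrial UMIs the count was 22. In cells with at most 4 UMIs of other cell types' markers it was 172 of only 737 genes tested, of which 72 were also called in the main fit. Of the 109 genes of the main fit, 73 were still tested there and 72 of these kept their direction.

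Promoters of contractile genes are known to carry CArG boxes (CC, then 6 bases of A or T, then GG), the binding sequence of serum response factor, which with myocardin drives smooth muscle genes. RefSeq promoter windows of build GRCm38.p6, from 250 bases before to 50 after each start site, were found for 23 of 28 genes (the contractile list with Acta2 and Tagln). A box with these letters lay in the windows of 2 genes, Myl9 and 1 of the 2 windows of Myl6, that is in 2 of 29 windows (6.90%), against 1.63% of all 32851 windows. Over the 48 of 65 smooth muscle genes with a window, 5 of 69 windows held a box (7.25%), those of Myl9 and Myl6 among them, so the 2 shares are not separate observations. The 250 bases before the start site are shown for Myl9 and Myl6 because they held the box, and both rose in smooth muscle. The box, in capitals, lay 161 bases before the start of Myl9 at chr2:156775214-156775463 (plus strand) and 50 bases before the start of Myl6 at chr10:128493010-128493259 (minus strand). A match describes the letters only.
Myl9: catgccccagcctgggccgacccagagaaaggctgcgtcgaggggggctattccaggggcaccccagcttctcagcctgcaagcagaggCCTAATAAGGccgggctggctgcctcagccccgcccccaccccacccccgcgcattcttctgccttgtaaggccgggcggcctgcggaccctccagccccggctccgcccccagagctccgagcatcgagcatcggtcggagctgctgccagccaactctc
Myl6: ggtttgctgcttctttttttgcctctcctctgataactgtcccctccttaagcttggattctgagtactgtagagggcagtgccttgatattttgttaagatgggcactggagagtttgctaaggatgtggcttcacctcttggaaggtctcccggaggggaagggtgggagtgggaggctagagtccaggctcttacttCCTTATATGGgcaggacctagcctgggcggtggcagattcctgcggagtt

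Myl9, the regulatory light chain of smooth muscle myosin, was at 3282, 6055 and 6968 CPM in smooth muscle and 1036, 1625 and 1856 CPM in other mural cells (log2 fold change 1.70 ± 0.24 SE, adjusted p = 0.0155, edgeR). Its levels in the classes did not overlap, and endothelial cells held 37, 40.9 and 60.9 CPM. Myl6, the essential light chain, was at 4805, 5925 and 5679.8 CPM in smooth muscle and 1213, 1435 and 1135 CPM in other mural cells (log2 fold change 1.98 ± 0.24 SE, adjusted p = 0.0125, edgeR); the latter overlapped the 1495, 1372 and 1232 CPM of endothelial cells. Myh11, the smooth muscle myosin heavy chain, was at 820.4, 1055 and 1238 CPM in smooth muscle and 110.2, 42.2 and 33.1 CPM in other mural cells (log2 fold change 4.26 ± 0.50 SE, adjusted p = 0.0125, edgeR). Tpm2, a tropomyosin that lies along actin filaments, was at 820.4, 2309 and 2628 CPM in smooth muscle and 44.1, 98.5 and 149 CPM in other mural cells (log2 fold change 4.24 ± 0.30 SE, adjusted p = 0.00146, edgeR). Lmod1, which nucleates actin filaments, was at 469, 251 and 576 CPM in smooth muscle and 44.1, 21.1 and 24.9 CPM in other mural cells (log2 fold change 3.76 ± 0.44 SE, adjusted p = 0.0125, edgeR). All of these genes were higher in smooth muscle in each of the 3 libraries.

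Pln showed the largest fitted rise. It encodes phospholamban, the inhibitor of the calcium pump Atp2a2, and was at 586, 1401 and 1458 CPM in smooth muscle. Other mural cells held 1 UMI in all against 253 in smooth muscle, a ratio of 426-fold (95% counting interval 75.7 to 16885). The pump gene Atp2a2 was at 586, 554 and 390.0 CPM in smooth muscle and 176, 302 and 166 CPM in other mural cells, and did not pass (adjusted p = 0.0859, edgeR). Sncg, gamma-synuclein, was at 1641, 1047 and 1424 CPM in smooth muscle and 110.2, 49.2 and 0 CPM in other mural cells (log2 fold change 4.88 ± 0.69 SE, adjusted p = 0.0155, edgeR). The odorant receptor gene Olfr558 had 25 UMIs in smooth muscle and 1 in other mural cells, Plcb4, a phospholipase C, 20 and 1, and Map3k7cl 16 and 1. Pdlim3 (28 against 2 UMIs), Lims2 (26 against 2) and the RNA-binding protein gene Rbm24 (24 against 2) complete the 10 largest rises with Myh11 and Tpm2. Each of these 6 low genes had a smooth muscle UMI in every library, with 1 in library 1.

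Other contractile genes followed other patterns. Cald1, the actin-binding protein caldesmon, was at 1875, 1661 and 2594 CPM in smooth muscle and 1102, 1646 and 2328 CPM in other mural cells (adjusted p = 0.826, edgeR), although mural cells as a whole were above endothelial cells (log2 fold change 4.12 ± 0.22 SE, adjusted p = 5.57e-07, edgeR). Ppp1r14a, an inhibitor of myosin phosphatase, was at 820.4, 597 and 746 CPM in smooth muscle and 485, 457 and 497 CPM in other mural cells (adjusted p = 0.429, edgeR). Des, the intermediate filament protein desmin, did not pass either (352, 432 and 610.4 CPM in smooth muscle and 309, 106 and 149 CPM in other mural cells, adjusted p = 0.107, edgeR). For 3 others that passed, endothelial cells held the transcript too. Csrp2 was at 0, 285 and 475 CPM in smooth muscle, 22, 21.1 and 0 CPM in other mural cells and 305, 191 and 258 CPM in endothelial cells. Sorbs2 was at 0, 571 and 271 CPM in smooth muscle, 22, 28.1 and 16.6 CPM in other mural and 199, 186 and 284 CPM in endothelial cells. Pcp4l1 was at 938, 934 and 983 CPM in smooth muscle, 132, 183 and 224 CPM in other mural and 662, 641 and 1076 CPM in endothelial cells. For these 3 genes the other mural cells were the lowest of the classes on average. Pcp4l1 was thereby higher in smooth muscle than in other mural cells (log2 fold change 2.26 ± 0.28 SE, adjusted p = 0.0125, edgeR) and lower in mural than in endothelial cells (log2 fold change -0.91 ± 0.25 SE, adjusted p = 0.0200, edgeR). Cnn1, calponin 1, was too low for the test, with 43 UMIs in smooth muscle of libraries 2 and 3 and none in other mural or endothelial cells. The cytoplasmic actin genes Actb and Actg1 did not pass (adjusted p of 0.116 and 0.594, edgeR), and reads of such close copies may be split uncertainly.

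**Figure D4:**
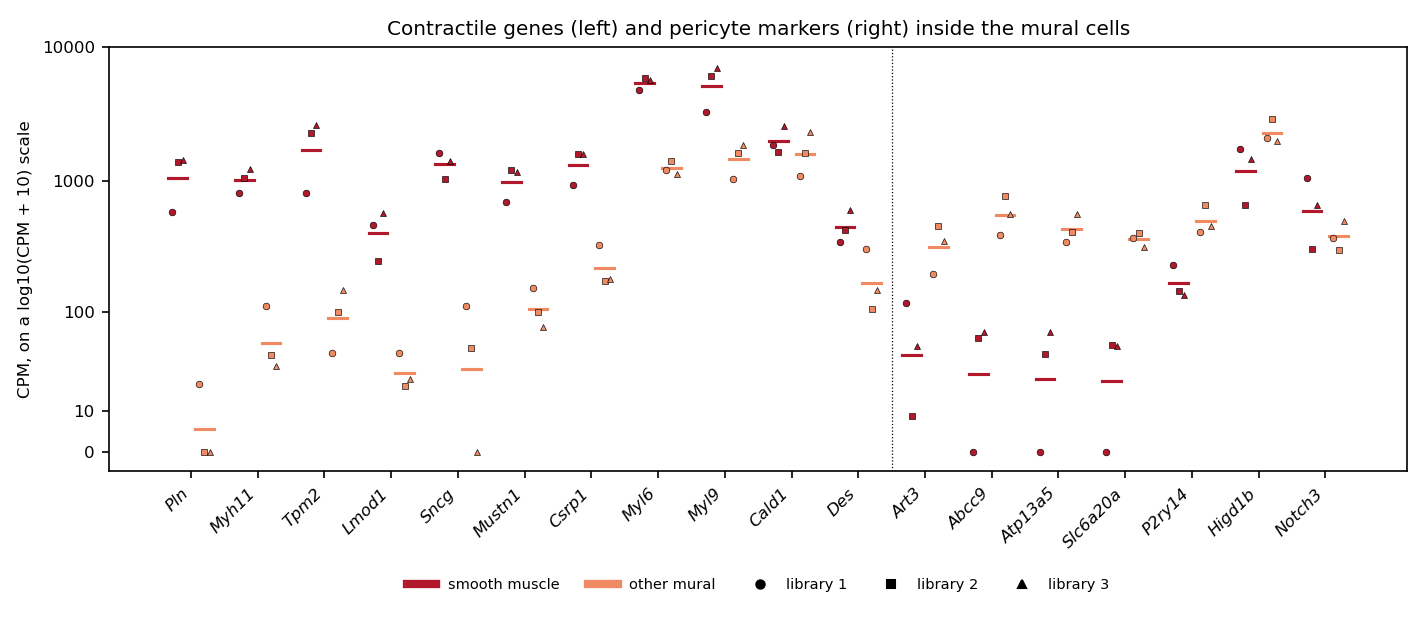
CPM of 11 contractile genes (left) and 7 pericyte markers (right) in smooth muscle and other mural cells, on a log10(CPM + 10) scale; each symbol is 1 library and each bar the mean of the log values of 3 libraries. The contractile genes except Cald1 and Des passed the test of the difference, as did Art3, Abcc9, Atp13a5, Slc6a20a and P2ry14, while Higd1b and Notch3 did not.

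The pericyte markers split. Of 15 tested, 5 were lower in smooth muscle, against 2.23% over all genes, and the other 10 did not pass, with a median log2 fold change of -1.37. Art3, an ADP-ribosyltransferase family gene, was at 117, 8.65 and 50.9 CPM in smooth muscle and 198, 464 and 356 CPM in other mural cells (log2 fold change -3.65 ± 0.71 SE, adjusted p = 0.0282, edgeR). Abcc9 was at 0, 60.5 and 67.8 CPM in smooth muscle and 397, 774 and 572 CPM in other mural cells (log2 fold change -3.49 ± 0.43 SE, adjusted p = 0.0115, edgeR). Atp13a5, a P-type ATPase gene, was at 0, 43.2 and 67.8 CPM in smooth muscle and 353, 415 and 572 CPM in other mural cells, and Slc6a20a, an imino acid transporter, at 0, 51.9 and 50.9 CPM in smooth muscle and 375, 408 and 323 CPM in other mural cells. Neither Abcc9, Atp13a5 nor Slc6a20a had a UMI in smooth muscle of library 1. P2ry14 was at 234, 147 and 136 CPM in smooth muscle and 419, 668 and 464 CPM in other mural cells (log2 fold change -1.89 ± 0.32 SE, adjusted p = 0.019, edgeR). By contrast, Higd1b was at 1758, 666 and 1475 CPM in smooth muscle and 2094, 2912 and 1997 CPM in other mural cells (adjusted p = 0.123, edgeR), and Notch3 at 1055, 311 and 661 CPM in smooth muscle and 375, 302 and 505 CPM in other mural cells (adjusted p = 0.538, edgeR). Ndufa4l2 and Cox4i2 did not pass either (adjusted p of 0.317 and 0.702, edgeR). The misses do not show that the levels are alike. Each of the 5 calls was lost without library 2 and without library 3. In cells of at least 1000 UMIs those of Art3, Slc6a20a and P2ry14 were lost (adjusted p of 0.0654, 0.0654 and 0.0695, edgeR). At no more than 10% mitochondrial UMIs those of Art3 and P2ry14 were lost (adjusted p of 0.131 and 0.0516, edgeR). The Art3 call was lost in further settings.

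Along the count of Acta2 and Tagln UMIs the pooled cells of the 3 libraries stood as follows, given as a description because the count defines the split. With 0, 1 to 2, 3 to 11 and 12 or more UMIs (195, 27, 42 and 54 cells), Myh11 was at 11.7, 232, 559 and 1339 CPM and Tpm2 at 89.7, 213, 865 and 2984 CPM. Vtn was at 5216, 1141, 1713 and 501 CPM, and Abcc9 at 729, 193, 126 and 31.3 CPM. Cells with 0 of these UMIs could enter only through the other rule genes, Vtn among them. Cells with 1 or 2 UMIs count as other mural cells; their Abcc9 lay nearer to the range above, their Tpm2 nearer to the range below. Rgs5 was highest in the middle range, at 4323, 3965, 8457 and 2694 CPM, as was Notch3, at 382, 445, 829 and 298 CPM. Median depth was 977, 981, 1036.5 and 1884 UMIs per cell in these ranges, so the cells of the highest range were also the deepest.

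**Figure D5:**
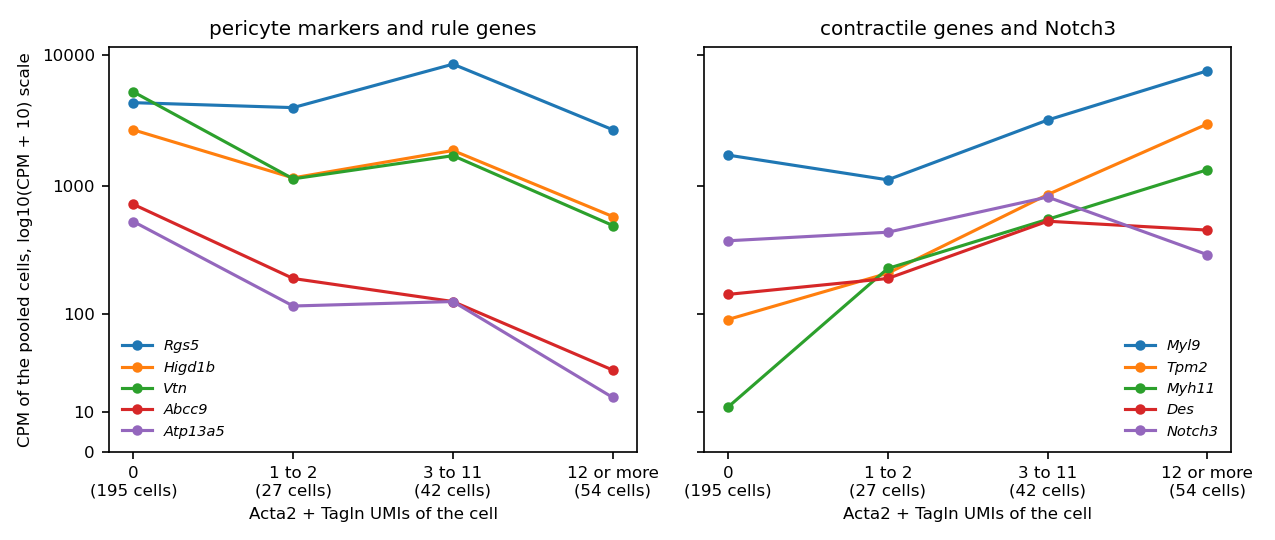
CPM of the pooled cells of 3 libraries in 4 ranges of the cell's Acta2 + Tagln UMIs, on a log10(CPM + 10) scale; the left panel shows pericyte markers with the rule genes Rgs5 and Vtn, the right panel contractile genes with Notch3. Myh11 and Tpm2 lie higher in each further range, Abcc9 lower, and Rgs5 and Notch3 are highest at 3 to 11 UMIs.

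In the other vascular lists, 2 of 14 receptor and cyclic nucleotide genes and 3 of 10 ion-handling genes passed, against 3.29% higher and 2.23% lower over all genes. Npy1r was higher in smooth muscle, at 117, 164 and 102 CPM in smooth muscle and 22, 0 and 16.6 CPM in other mural cells. It had 26 UMIs against 3, a ratio of 14.6-fold (95% counting interval 4.47 to 75.3), and an adjusted p of 0.0492 (edgeR). The Npy1r call was lost with DESeq2 (adjusted p = 0.0789), among other settings. The other receptor gene that passed was P2ry14; Rgs4 and Gnai2 did not (adjusted p of 0.392 and 0.909, edgeR). Kcnk3, an acid-sensitive potassium leak channel, was at 469, 60.5 and 119 CPM in smooth muscle and 22, 14.1 and 8.29 CPM in other mural cells (log2 fold change 3.04 ± 0.64 SE, adjusted p = 0.0304, edgeR). With DESeq2 it missed the threshold (adjusted p = 0.0509), as it did in other settings. The astrocyte markers Slc1a2 (log2 fold change -2.94) and Aqp4, with 3 against 39 UMIs, were lower in smooth muscle. Slc1a3, which astrocytes also express, was lower as well (-3.28). Of 12 tested signalling genes of the PDGF, TGF-beta, Notch, angiopoietin and VEGF pathways, each had an adjusted p above 0.05 (edgeR). Among them Id3 was at 234, 1133 and 1407 CPM in smooth muscle and 397, 338 and 257 CPM in other mural cells (adjusted p = 0.157, edgeR).

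In the matrix list 1 of 23 tested genes was higher and 2 lower, against 3.29% higher and 2.23% lower over all genes. Sparcl1, a secreted matrix-associated glycoprotein, was at 2930.2, 2482 and 4086 CPM in smooth muscle and 1080.2, 1161 and 1077 CPM in other mural cells (log2 fold change 1.35 ± 0.26 SE, adjusted p = 0.0286, edgeR). The Sparcl1 call was lost in cells of at least 1000 UMIs (adjusted p = 0.367, edgeR), among other settings. The basement membrane genes Lamb1, with 2 UMIs in smooth muscle and 36 in other mural cells, and Nid1, at 117, 51.9 and 33.9 CPM in smooth muscle and 176, 246 and 199 CPM in other mural cells, were lower. Neither call held with DESeq2 (adjusted p of 0.104 and 0.132), among other settings. That of Nid1 was also lost in cells of at least 1000 UMIs (adjusted p = 0.18, edgeR). Mgp and Mfge8 did not pass (adjusted p of 0.788 and 0.221, edgeR). Of 13 tested genes of the mural transcription factor list only Zic1 passed, lower in smooth muscle at 117, 121 and 187 CPM in smooth muscle and 375, 492 and 431 CPM in other mural cells (log2 fold change -1.69 ± 0.33 SE, adjusted p = 0.0286, edgeR). Its call was lost with DESeq2 (adjusted p = 0.0789), among other settings. Ebf1 and Mef2c were not called (adjusted p of 0.953 and 0.48, edgeR).

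The fall in smooth muscle was largest for Nts, the neuropeptide neurotensin, with 3 UMIs in smooth muscle and 142 in other mural cells, a ratio of other mural to smooth muscle cells of 28.1-fold (95% counting interval 9.43 to 138). Nts stood at 154, 837 and 133 CPM in other mural cells, highest in library 2, against 4.63, 42.7 and 11.6 CPM in endothelial cells, and mural cells as a whole were above endothelial cells (log2 fold change 3.46 ± 0.34 SE, adjusted p = 2.74e-05, edgeR). Emcn, endomucin, a surface glycoprotein listed here as an endothelial marker, was at 0, 8.65 and 33.9 CPM in smooth muscle and 198, 274 and 232 CPM in other mural cells, beside 249.9, 316 and 435 CPM in endothelial cells. The endothelial adhesion gene Cdh5 had 1 UMI in all mural cells, and 20 of the 22 endothelial markers had a UMI there. Because the rule limited Cldn5 and Flt1 in mural cells, low counts of genes that go with them are no check. Whether the Emcn UMIs came from endothelial RNA was not tested. Vstm4 and Oaf were the other large falls, with 3 and 2 UMIs in smooth muscle against 64 and 46.

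Of the immune and stress lists, 1 of 11 inflammatory, 2 of 22 interferon-response and antigen presentation and 2 of 16 stress genes passed. Over all genes tested, 3.29% were higher and 2.23% lower, so calls of 1 or 2 genes do not by themselves set these lists apart. The median log2 fold change was -1.37 in the inflammatory list and -1.18 in the interferon-response list, against -0.08 over all genes. The chemokine gene Ccl2 was lower in smooth muscle, at 0, 77.8 and 0 CPM in smooth muscle and 132, 429 and 49.7 CPM in other mural cells (log2 fold change -2.64 ± 0.61 SE, adjusted p = 0.0395, edgeR), with 9 UMIs that all came from library 2. The Ccl2 call was lost with DESeq2 (adjusted p = 0.0891), among other settings. The interferon-response genes Ifit3 and Ifitm3 were lower (log2 fold changes -2.34 and -1.02), but neither call held with DESeq2 (adjusted p of 0.065 and 0.0516) or with no replicate block (adjusted p of 0.113 and 0.186, edgeR). That of Ifitm3 was also lost without library 1, 2 or 3 (adjusted p of 0.0803, 0.0997 and 0.541, edgeR). Ifitm3 was at 1641, 1617 and 2577 CPM in smooth muscle and 2535, 3446 and 4765 CPM in other mural cells, the latter close to the 2643, 3054 and 4242 CPM of endothelial cells. In the immediate early and stress list, Junb and the heat shock gene Hspb1 were higher in smooth muscle (log2 fold changes 1.98 and 1.84); the call of Hspb1 was lost with no replicate block (adjusted p = 0.1003, edgeR). Junb was at 117, 908 and 1068 CPM in smooth muscle and 22, 183 and 331 CPM in other mural cells, and Cebpb, which did not pass, ranged widely at 117, 2344 and 492 CPM in smooth muscle. The median of this list was 1.70 over 16 tested genes, against -0.08 over all genes. List medians were not tested. Markers of oligodendrocytes and microglia were lower in smooth muscle for Mbp (-1.84), Mobp (-1.47) and C1qc (-2.06, but 0.93 with the smooth muscle limit at 6 UMIs); their part in the other differences was not tested.

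FLiCRE turns calcium entry that coincides with light into expression of a reporter. RNAs of the FLiCRE constructs are read here as the features mCherry, TEV and tTA. A UMI of TEV or tTA is not taken as a sign of labelling by activity. In mural cells an mCherry UMI was found in 1.79%, 6.32% and 1.39% of cells in libraries 1, 2 and 3 (1 of 56, 12 of 190 and 1 of 72), TEV in 0%, 4.74% and 1.39%, and tTA in 0%, 1.05% and 1.39%. The 0 of 56 cells of library 1 allow a share of cells with a UMI of up to 5.36% (3 cells of the total), or 6.38% as the upper Clopper-Pearson bound; neither limits the share of cells that express the gene. Other classes were taken from cells that were neither mural nor endothelial. Oligodendrocytes held 3 or more UMIs of Mog, Mag and Cldn11 and at most 1 of Snap25 and Syt1. Neurons held 3 or more UMIs of Snap25 and Syt1. Oligodendrocytes, set beside mural cells (median depth 1872 UMIs, mural cells 1089.5), had an mCherry UMI in 0.97%, 10.1% and 4.07% of cells. Neurons had one in 7.80%, 20.8% and 12% of cells. Endothelial cells had one in 0%, 13.0% and 3.03%. At these unequal depths the mural mCherry share was below that of oligodendrocytes in libraries 2 and 3, and in library 1 it rests on 1 cell (95% interval 0.0452 to 9.55%). After thinning to 1000 UMIs per cell, which left 14, 104 and 60 mural cells, mCherry was found in 7.14%, 0.962% and 1.67% of mural cells (1 cell in each library) and in 0.513%, 3.93% and 1.05% of oligodendrocytes. The order of these classes thus turned in library 3, on 1 mural cell. TEV after thinning was found in 0%, 4.81% and 0% of mural cells (5 cells of library 2) and 0%, 3.28% and 0.699% of oligodendrocytes. Whether the UMIs in mural cells are free RNA was not tested. For mCherry and TEV no difference between mural and endothelial cells was detected (adjusted p of 0.691 and 0.0554, edgeR), and tTA was too low to test. Mural cells were limited to at most 1 UMI of Snap25 and Syt1, whereas endothelial cells had no such limit. The classes may thus hold unequal amounts of neuronal RNA, and its part in the construct counts was not tested.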

How the data were processed

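Single-cell RNA libraries of 3 samples of 1 group were deposited as 1 matrix of 28001 features and 11625 barcodes. Values are UMI counts made by the authors with Cell Ranger 3.0 on mm10, per the submitters' processing notes; whether depth was equalised when the libraries were pooled, and whether strand was used, is not given in the sources used here. Cells were kept at 300 genes or more and at most 20% mitochondrial UMIs, which left 10291.

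The members and gene lists were chosen with earlier results of these data known. Counts were summed per library and class and tested with edgeR 4.0.16 (R 4.3.3; TMM scaling, low-count filter, robust quasi-likelihood test, library as a block, as each library supplied both classes), with Benjamini-Hochberg adjustment over all genes tested; the setting of the prior was chosen with its earlier results known. Genes were called at an adjusted p under 0.05. The 13 genes of the rules were left out of the tests. SE is the log2 fold change divided by the root of the test statistic. Scripts were tested on simulated data.

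Named genes are, in each comparison, the 10 largest rises and 6 largest falls with the same sign in 3 of 3 libraries. Added to them are up to 4 called genes with the largest change and up to 2 abundant uncalled genes of each of 24 lists, the isoform pairs, the construct features and the genes with a CArG box. Others were chosen after their values were seen, and a few genes are not reported here. Folds for classes at 0 UMIs use a floor of 3 counts over the class. Doublets were scored with Scrublet in scanpy 1.11.5 and kept; leaving out the highest scores was an alternative. Other alternatives were DESeq2 1.42.0, other scaling, filters, cell rules and each library left out. Promoter letters come from RefSeq (GRCm38.p6).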

Additional observations from a re-analysis of the deposited data

How the results depend on the processing

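Smooth muscle values of library 1 rest on 10 cells, and genes with few UMIs could not be compared at this depth. For mural against endothelial cells the 1186 called genes became 745 with no replicate block and 747 in cells of at least 1000 UMIs, and ranged from 357 to 989 when 1 library was left out (989, 686 and 357 without libraries 1, 2 and 3). DESeq2 gave 795. For smooth muscle against other mural cells the 109 called genes became 283 with the package-default prior, 58 in cells of at least 1000 UMIs, 42 in cells with 0 UMIs of the excluded genes and 22 at no more than 10% mitochondrial UMIs. With at most 4 UMIs of other cell types' markers, a setting chosen after seeing the data, the count was 172 of 737 genes tested, 72 of them among the 109. Leaving out 1 library gave 0 to 117 genes (117, 2 and 0 without libraries 1, 2 and 3). DESeq2 gave 80 genes and the fit with no replicate block 80. Genes higher in smooth muscle were 59.6% of calls, against 46.6% with the package-default prior. The mean share of mural cells was 2.33% in cells of at least 1000 UMIs and 2.16% with 0 UMIs of the excluded genes, against 3.13%. Of the named genes, the direction reversed for Mbp (log2 fold change -0.27, mural over endothelial, at most 4 UMIs of other cell types' markers), Cldn11 (-0.26, 0 UMIs of the excluded genes), and C1qc (0.93, smooth muscle over other mural, with smooth muscle at 6 UMIs). All 3 are markers of oligodendrocytes or microglia. Over all settings of the named genes, 68 values for mural against endothelial cells and 153 for smooth muscle lost the threshold. For changes not due to fewer cells or libraries, the cause was not tested.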
